A study of Rattus norvegicus with 65 samples.

Results

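The liver transcriptome of rats given 1 dose of urethane was set against that of rats given 1 dose of ME or of SN. The 9 arrays were chosen by their titles, 3 labelled Urethane short, 3 ME short and 3 SN short, out of 65 arrays in the series. The compared value was the Urethane short mean minus the average of the ME short and SN short means. Urethane is ethyl carbamate, a carcinogen of fermented food and drink.

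The study exposed rats to hepatocarcinogens and profiled the liver after single or repeated dosing, with 1 array per animal. All animals were male Sprague-Dawley rats, 6 weeks old, with free access to food and water. The labels give the single doses as 500 for Urethane, 300 for ME and 50 for SN, without a unit. ME and SN are used as the labels write them, since the list of compounds in the study's design is not tied to the abbreviations. The source label places short groups at 3 hours and long groups at 72 hours, whereas the treatment text speaks of autopsy after 24 hours, so the words short and long are kept. Urethane long, ME long and SN long are the repeated groups (labelled 3 doses) of the same compounds, with 3 rats each. The set that holds these compounds, called the test set, has no untreated or vehicle group. A difference therefore says how urethane-treated livers differed from livers that had also received a carcinogen, and a gene moved alike by all 3 compounds is not seen. DCP, another compound of the set, was left out of the average because its strong response shifts it.

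Urethane is itself of low reactivity, and the liver enzyme CYP2E1 oxidises it to vinyl carbamate and its epoxide, which binds DNA. Cells with damaged DNA stabilise the transcription factor p53, which induces the cell cycle inhibitor Cdkn1a, its own inhibitor Mdm2 and other genes. Other stresses leave other marks: ATF4 of the integrated stress response induces amino acid synthesis, heat shock factor induces chaperones, NRF2 induces conjugating enzymes, and immediate early genes such as Jun follow growth factor and stress kinases within minutes.

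All values are log2 signals from the arrays, and differences of them are given ± SE with the adjusted p of limma's moderated test. A gene was called, and is said to have risen or fallen, at an adjusted p under 0.05 over all 10213 genes tested. The p-values measure the spread between the rats of a group. Of 17 hepatocyte marker genes tested, none was called, beside 3.72% among all genes, which is near the background. The liver label fitted the signals: albumin averaged 14.70 in Urethane short, 14.67 in ME short and 14.66 in SN short. Transthyretin averaged 13.97 in Urethane short, 13.97 in ME short and 13.97 in SN short. In bulk tissue, fewer cells of a type and less RNA per cell cannot be told apart.

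Some features of these 9 arrays touch most results. Urethane short 1 and Urethane short 2 were the closest pair among 64 within-group pairs of the series, with a median absolute difference of 0.0873 per probe set, against 0.0999 for the next pair and a median of 0.146 over pairs. Only 3 of 19352 probe sets differed by more than 1 between them. The labels call them separate biological replicates, and they were kept as 2 samples. The difference between the 3′ and 5′ beta-actin probe sets, a sign of RNA integrity and of labelling, was 2.69, 2.79 and 2.72 in Urethane short, against 2.29, 2.29 and 2.22 in ME short and 2.67, 2.53 and 2.55 in SN short. The Urethane short arrays lay above all 6 others in it. The same difference for Gapdh was 0.785, 0.827 and 0.680 in Urethane short, against 0.433, 0.501 and 0.527 in ME short and 0.568, 0.682 and 0.680 in SN short, where Urethane short 3 overlapped with SN short. The part of RNA quality in the results was not tested beyond a fit that carries these measures, whose counts are given with the results.

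In all, 104 genes rose and 276 fell in Urethane short, 3.72% of the genes tested, with 1.02% higher and 2.7% lower. The differences were small, with a median of 0.37 among the genes that rose and -0.41 among those that fell, beside a median of -0.02 over all genes. Only 7 of the risen and 17 of the fallen genes differed by 1 or more. Taken singly, the comparison with ME short called 162 higher and 201 lower genes (3.55%, with 1.59% higher and 1.97% lower), and that with SN short called 54 higher and 240 lower (2.88%, with 0.529% higher and 2.35% lower). Only 9 of the risen and 67 of the fallen genes were called in both, and the 2 comparisons share the Urethane short arrays. ME short and SN short also differed from each other, in 173 genes (1.69%). Over the 10213 genes, the 3 Urethane short arrays all lay above or all below the 6 others in 961 genes (9.41%), of which 316 were higher (3.09%) and 645 lower (6.32%).

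The counts rest on single rats. Without Urethane short 1 there were 10 higher and 38 lower genes, without Urethane short 2 there were 3 and 37, and without Urethane short 3 there were 51 and 188. With Urethane short 1 and 2 averaged and counted as 1 array, 4 genes were higher and 37 lower. With the beta-actin difference as a covariate 3 were higher and 16 lower, and with the Gapdh difference 10 were higher and 56 lower. Quantile normalization of the deposited columns gave 168 higher and 178 lower genes, so the surplus of fallen genes depended on the scaling. Each of the 380 called genes kept its sign in all of these fits. The bar chart of calls per setting gives the whole range.

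**Figure D1:**
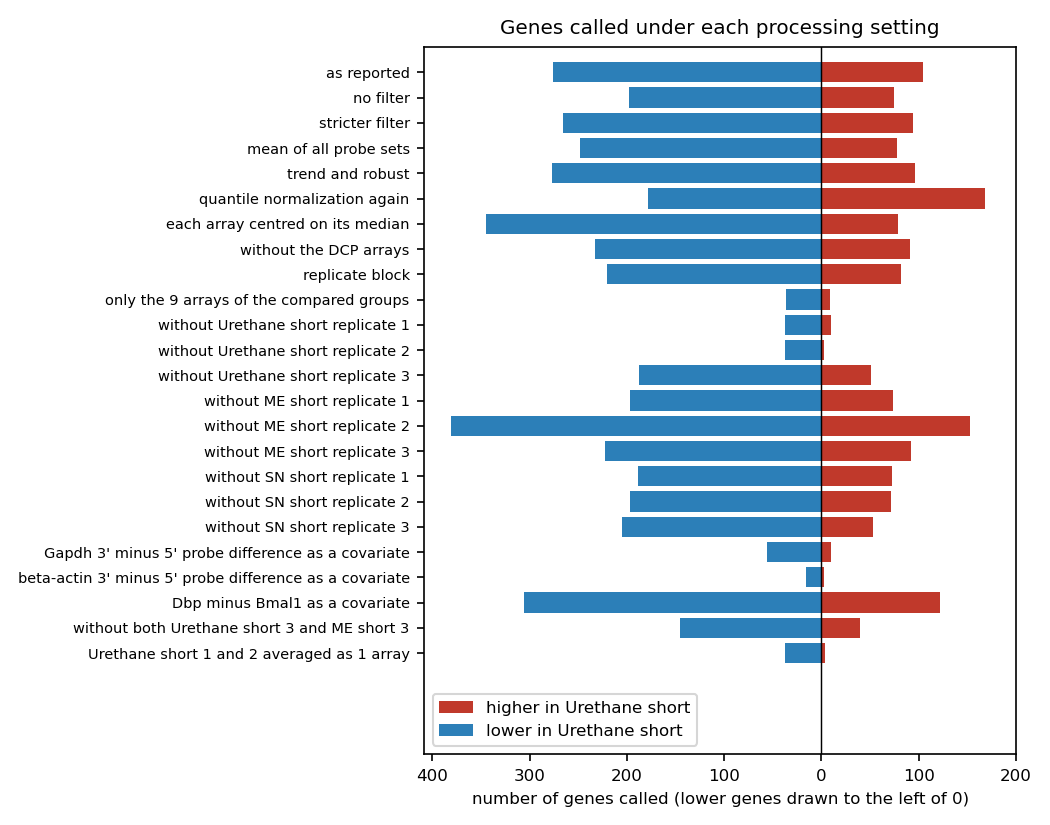
Number of genes called at an adjusted p under 0.05 (x axis) in each processing setting (y axis), with genes higher in Urethane short drawn to the right of 0 and lower genes to the left. The settings without Urethane short 1 or 2, with both averaged, or with a 3′ minus 5′ covariate gave at most 10 higher and 56 lower genes, against 104 and 276 as reported.

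Genes of serine and asparagine synthesis were the highest of the genes whose arrays did not overlap. Phgdh, which catalyses the entry step of serine synthesis, had 8.91, 8.90 and 8.92 in Urethane short, against 7.64, 6.35 and 5.90 in ME short and 7.51, 8.28 and 7.09 in SN short. The Urethane short arrays lay almost on one value above 6 scattered ones, and the difference was 1.78 ± 0.41 (adjusted p = 0.0256), or 3.43-fold. Psat1, the transaminase of the next step, had 9.38, 9.18 and 9.51 in Urethane short, against 7.93, 8.26 and 7.36 in ME short and 8.88, 8.41 and 8.37 in SN short, a difference of 1.16 ± 0.31 (adjusted p = 0.0426). Its groups did not overlap, with SN short closer to Urethane short than ME short was. Asns, the asparagine synthetase, had 8.43, 8.55 and 8.73 in Urethane short, against 7.61, 7.53 and 6.19 in ME short and 7.30, 7.76 and 7.51 in SN short, a difference of 1.25 ± 0.35 (adjusted p = 0.0496). ME short 3 stood far below the other arrays in it. Mthfd2, a mitochondrial enzyme of one-carbon metabolism, had 7.55, 7.36 and 7.34 in Urethane short, against 6.39, 6.77 and 5.73 in ME short and 6.60, 5.97 and 6.68 in SN short, a difference of 1.06 ± 0.24 (adjusted p = 0.0239). Again no ME short or SN short array reached the Urethane short arrays. DCP short, outside the reference, averaged 8.62 in Phgdh, 9.74 in Psat1, 8.47 in Asns and 8.43 in Mthfd2. Urethane short minus DCP short did not pass in Phgdh, Psat1 or Asns (adjusted p 0.439 to 0.871). In Mthfd2 it was called at -1.02 (adjusted p = 0.00908), with DCP short higher. All of these genes lost their calls when DCP short was added to the reference.

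These 4 were the called members of the integrated stress response list, and all are known targets of ATF4. Of its 31 tested members, 4 rose, none fell and 27 did not pass, beside 3.72% called among all genes, and the list median was 0.22 beside -0.02 for all genes. Differences of 26 members were above 0. Members that did not pass include the amino acid transporters Slc7a1 at 1.02 ± 0.30 (adjusted p = 0.062) and Slc38a2 at 0.84 ± 0.31 (adjusted p = 0.138), Atf4 itself at 0.28 and Ddit3, the proapoptotic factor downstream of ATF4, at -0.64. The mean level of the list was 9.03, 8.97 and 8.99 in Urethane short, against 8.57, 8.69 and 8.35 in ME short and 8.68, 8.77 and 8.84 in SN short. Set against the single groups, Phgdh, Asns, Psat1 and Mthfd2 were called against ME short (adjusted p 0.0192 to 0.0484) and not against SN short (0.0622 to 0.229), while ME short minus SN short did not pass in any of them (0.296 to 0.872). None of the 4 calls held without Urethane short 1, 2 or 3 (adjusted p up to 0.106 for Phgdh, 0.157 for Asns, 0.142 for Psat1 and 0.11 for Mthfd2 over all rats left out), nor with either 3′ minus 5′ covariate. The calls of Asns and Psat1 were also lost without ME short 3, SN short 2 or SN short 3, that of Asns without SN short 1 and that of Psat1 without ME short 1. With the replicate number as a block, Asns was at an adjusted p of 0.058 and Psat1 at 0.0553, and Asns lost its call against ME short too (0.0573).

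Metallothionein Mt1, a small cysteine-rich protein that binds zinc and copper and is induced by metals and glucocorticoids, had the lowest adjusted p of the named genes that rose. It had 7.75, 7.88 and 7.60 in Urethane short, against 6.70, 6.68 and 6.78 in ME short and 6.74, 6.94 and 6.94 in SN short. The 6 other arrays lay close together and well below the Urethane short arrays, and the difference was 0.95 ± 0.12 (adjusted p = 0.000473), or 1.93-fold. It was called against ME short and against SN short singly, at adjusted p of 0.00105 and 0.00308. It was also called in every alternative that keeps this reference. Mt2A, its sister gene, was not called, at -0.42 ± 0.18 (adjusted p = 0.197), and had 13.29, 13.30 and 12.39 in Urethane short, against 13.62, 13.57 and 13.12 in ME short and 13.20, 13.29 and 13.71 in SN short. Of the 10 tested members of the metallothionein and metal list, Mt1 was the called one, and the list median was -0.08. Mt1 and Mt2A are close relatives, and probe sets can respond to both.

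The start of Mt1 is shown because metal response elements are the known switch of this gene. The stretch is the 250 bases before the RefSeq start on assembly GRCr8, chr19:10832976-10833225, minus strand, printed 5′ to 3′, with the matches to TGCACNC or TGCGCNC on either strand in capitals.
Mt1: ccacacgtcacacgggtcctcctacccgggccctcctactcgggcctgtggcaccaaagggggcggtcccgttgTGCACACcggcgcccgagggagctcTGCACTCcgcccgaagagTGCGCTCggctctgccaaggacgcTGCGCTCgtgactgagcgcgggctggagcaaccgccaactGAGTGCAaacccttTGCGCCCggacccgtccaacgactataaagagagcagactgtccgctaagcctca
The window held 6 matches, none overlapping another. Of 33469 RefSeq promoter windows of this length, 20.6% held at least 1 match and 0.0269% held 6 or more. A match is a string of letters and no evidence of binding in these livers.

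Other genes that rose came from several processes. Stxbp6, a SNARE-binding protein of secretion, had 8.10, 8.06 and 8.45 in Urethane short, against 6.61, 6.83 and 7.12 in ME short and 8.02, 7.84 and 7.86 in SN short. Its difference of 0.82 ± 0.11 (adjusted p = 0.000518) came from ME short (1.35, adjusted p = 2.08e-05) far more than from SN short (0.30, adjusted p = 0.216), and ME short minus SN short was itself called at -1.05 (adjusted p = 0.000206). The call held in every alternative that keeps this reference. Nfkbia, the inhibitor that holds NF-kappa-B in the cytoplasm, had 9.80, 9.86 and 9.41 in Urethane short, against 9.40, 9.15 and 8.69 in ME short and 9.04, 8.84 and 8.76 in SN short, a difference of 0.71 ± 0.15 (adjusted p = 0.0161). Urethane short 3 lay just above ME short 1 in it. Msmo1, a sterol oxidase of cholesterol synthesis, had 11.19, 11.18 and 11.33 in Urethane short, against 10.98, 10.62 and 10.35 in ME short and 10.32, 9.66 and 10.42 in SN short, a difference of 0.84 ± 0.22 (adjusted p = 0.0383). It was the only called one of 20 cholesterol synthesis genes (5%), whose median was 0.17 with 16 above 0. Eci1, which isomerises unsaturated fatty acids in mitochondrial oxidation, rose by 0.57 ± 0.13 (adjusted p = 0.0244). It and Ucp2, which fell by 0.75 ± 0.15 (adjusted p = 0.0109), were the called members of 37 PPAR alpha targets (5.41%), with a median of 0.12. The shares called in these 2 lists are near the 3.72% among all genes. Differences of 27 PPAR alpha targets were above 0. The Urethane short arrays lay above all 6 others in 10 of the targets and below them in 1, beside 3.09% and 6.32% of all genes. The remaining genes with the largest rises were Cped1 at 0.92 (adjusted p = 0.0495), the MAX partner Mga at 0.90 (adjusted p = 0.0499) and the ciliary regulator Rfx3 at 0.61 (adjusted p = 0.0465). The last 2 had low signals. Rfx3 was below the test set's median of 5.65 in every compared array, and Mga in every ME short and SN short array. Without Urethane short 1 or 2, Nfkbia, Msmo1, Eci1, Cped1, Mga and Rfx3 lost their calls (adjusted p up to 0.204 over all rats left out), and Ucp2 lost its call without Urethane short 1 or 3 (up to 0.0571). Msmo1, Eci1, Cped1 and Rfx3 lost theirs without Urethane short 3 too. Of the rats of the other groups, ME short 3 or SN short 2 decided the call of Msmo1, any SN short rat that of Cped1, ME short 1 or 3 or any SN short rat that of Mga, and ME short 2 or any SN short rat that of Rfx3.

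**Figure D2:**
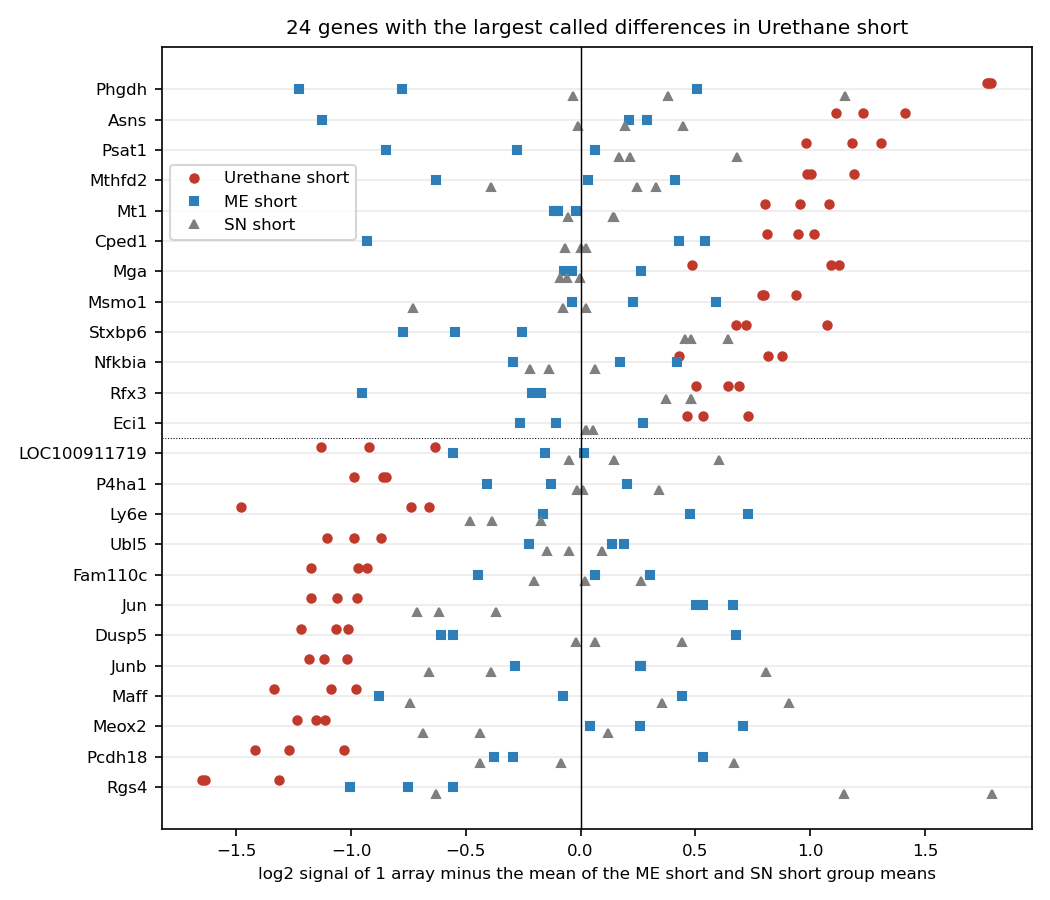
Log2 signal of each array minus the mean of the ME short and SN short group means (x axis) for the 12 highest and 12 lowest called genes whose arrays do not overlap (y axis), with circles for Urethane short, squares for ME short and triangles for SN short. Phgdh is highest at 1.78 and Rgs4 lowest at -1.53, and in Stxbp6 and Jun 1 of the other groups lies close to Urethane short.

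Several immediate early genes, which encode transcription factors of the AP-1 and related families, were among the genes that fell. Jun had 8.002, 7.89 and 8.09 in Urethane short, against 9.60, 9.56 and 9.73 in ME short and 8.35, 8.44 and 8.70 in SN short. The groups formed 3 separate bands, with the difference of -1.07 ± 0.16 (adjusted p = 0.00138) made up of -1.64 against ME short (adjusted p = 7.37e-05) and -0.50 against SN short (adjusted p = 0.14). ME short minus SN short was called too, at 1.13 (adjusted p = 0.00319). Junb, its family member, had 6.95, 6.78 and 6.85 in Urethane short, against 8.23, 8.23 and 7.69 in ME short and 7.58, 7.31 and 8.78 in SN short, a difference of -1.11 ± 0.21 (adjusted p = 0.0103). All 6 other arrays lay above Urethane short, and it was called against each group singly. Maff, a small Maf protein, had 4.37, 4.48 and 4.12 in Urethane short, against 5.89, 5.38 and 4.57 in ME short and 4.71, 5.81 and 6.36 in SN short, a difference of -1.13 ± 0.28 (adjusted p = 0.0344). ME short 3 and SN short 1 came close to Urethane short in it. Maff was called against SN short (adjusted p = 0.0382, and 0.0536 with the replicate block) and not against ME short (0.101). Its signal was low, below the test set's median of 5.65 in every Urethane short array, in ME short 2 and 3 and in SN short 1. Klf6, a zinc finger factor, had 8.16, 8.14 and 7.71 in Urethane short, against 9.02, 8.61 and 8.57 in ME short and 8.24, 8.48 and 8.99 in SN short, a difference of -0.65 ± 0.16 (adjusted p = 0.0358). Klf6 was called against ME short (adjusted p = 0.0402, and 0.0561 with the replicate block) and not against SN short (0.111). Junb averaged 6.86 in Urethane short, near Urethane long (6.98), ME long (6.84) and SN long (6.82). Jun averaged 7.99, against 8.18, 7.92 and 7.98 in that order. Klf6 averaged 8.19, 8.15 and 8.08 in the long groups. Maff averaged 4.32 in Urethane short, against 5.33 in Urethane long, 4.20 in ME long and 4.45 in SN long. Without an untreated group, whether urethane lowered these genes or ME and SN raised them was not tested.

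Of 22 immediate early genes tested, these 4 fell, none rose and 18 did not pass, beside 2.7% called lower and 3.72% called either way among all genes. The list median was -0.35 beside -0.02 for all genes. Several others had large differences with wide spread. Dusp6, a phosphatase of ERK, was at -1.70 ± 0.51 (adjusted p = 0.067), with 7.45, 7.49 and 8.42 in Urethane short, against 9.21, 8.35 and 10.51 in ME short and 9.39, 9.55 and 9.95 in SN short. Egr1, an early growth response factor, was at -1.55 ± 0.47 (adjusted p = 0.068), with 8.69, 8.95 and 10.25 in Urethane short, against 10.82, 9.92 and 9.57 in ME short and 11.09, 11.33 and 12.32 in SN short. In both, Urethane short 3 lay inside the range of the other groups. Dusp5, a nuclear ERK phosphatase and no member of the list, fell by 1.10 ± 0.22 (adjusted p = 0.0127), and Fos was at -0.91 ± 0.65 (adjusted p = 0.443). The call of Jun held without each rat in turn and was lost with the beta-actin covariate (adjusted p = 0.0694). Junb, Dusp5, Maff and Klf6 lost their calls without Urethane short 1 or 2 (adjusted p up to 0.148 over all rats left out). Maff and Klf6 lost theirs also without Urethane short 3, ME short 1 or SN short 3, and Maff without SN short 2. With the replicate block Klf6 lost its call as well (adjusted p = 0.0508).

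The start of Maff is shown as an example of the early genes, whose known switches include the cyclic AMP response element. It is chr7:112792537-112792786 of GRCr8, plus strand, from RefSeq, with the match to TGACGTCA, which reads the same on both strands, in capitals.
Maff: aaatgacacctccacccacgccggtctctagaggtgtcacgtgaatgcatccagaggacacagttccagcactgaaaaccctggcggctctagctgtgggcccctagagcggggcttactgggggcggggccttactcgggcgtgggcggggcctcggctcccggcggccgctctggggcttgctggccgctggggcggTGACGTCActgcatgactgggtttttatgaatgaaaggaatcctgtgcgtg
This window held 1 match, and 1.59% of the 33469 promoter windows held at least 1. A match is a description of the letters alone.

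Of 18 genes of hypoxia and glycolysis tested, 4 fell, none rose and 14 did not pass, beside 2.7% called lower among all genes. The list median was -0.19 beside -0.02 for all genes. P4ha1, a subunit of the collagen prolyl 4-hydroxylase and a known target of hypoxia-inducible factor, had 7.35, 7.49 and 7.47 in Urethane short, against 8.54, 7.92 and 8.20 in ME short and 8.32, 8.67 and 8.34 in SN short. The Urethane short arrays lay together below all others, with a difference of -0.90 ± 0.12 (adjusted p = 0.000776). Pfkl, the liver phosphofructokinase, had 6.27, 6.02 and 5.89 in Urethane short, against 6.37, 6.54 and 6.62 in ME short and 7.14, 7.36 and 7.04 in SN short, a difference of -0.78 ± 0.10 (adjusted p = 0.000361). ME short lay between, close above Urethane short. Aldoa, a glycolytic aldolase, had 10.09, 10.22 and 9.87 in Urethane short, against 11.001, 10.50 and 10.24 in ME short and 10.73, 10.79 and 10.64 in SN short, a difference of -0.59 ± 0.12 (adjusted p = 0.0109). Ankrd37, an ankyrin repeat protein induced in hypoxia, had 5.64, 5.70 and 5.80 in Urethane short, against 6.13, 6.45 and 5.74 in ME short and 6.25, 6.91 and 6.28 in SN short, a difference of -0.58 ± 0.15 (adjusted p = 0.0397) with overlap at ME short 3. Other members did not pass, among them Bnip3 at -0.37, Pgk1 at -0.07, Vegfa at -0.02 and Ldha at 0.03. Differences of 4 members were above 0, the highest at 0.59. P4ha1 and Pfkl kept their calls without each rat in turn and with both covariates, whereas Aldoa lost its call without Urethane short 1 or 3 (adjusted p up to 0.056) and Ankrd37 without any of 6 rats, Urethane short 1, 2 and 3, ME short 1 and 2 and SN short 2 (up to 0.152), and with the replicate block (0.0562).

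The start of P4ha1 is shown for the core of the hypoxia response element. It is chr20:27844796-27845045 of GRCr8, plus strand, from RefSeq, with matches to ACGTG or GCGTG on either strand in capitals.
P4ha1: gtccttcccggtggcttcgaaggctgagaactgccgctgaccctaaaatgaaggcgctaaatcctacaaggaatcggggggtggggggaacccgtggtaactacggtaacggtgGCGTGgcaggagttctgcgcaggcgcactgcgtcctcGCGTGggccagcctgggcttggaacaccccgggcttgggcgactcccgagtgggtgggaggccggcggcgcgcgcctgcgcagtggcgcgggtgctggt
The window held 2 matches. They are common letters, since 36.7% of promoter windows held at least 1 and 16% held 2 or more.

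The gene with the lowest adjusted p among those named was Ubl5, a ubiquitin-like protein of pre-mRNA splicing. It had 9.63, 9.51 and 9.74 in Urethane short, against 10.39, 10.75 and 10.81 in ME short and 10.57, 10.71 and 10.47 in SN short. The other groups agreed closely and both lay above Urethane short, with a difference of -0.99 ± 0.09 (adjusted p = 9.81e-06) that held in every alternative with this reference. After the values were seen, the genes called in all of these alternatives that test them were counted, and there were 13. Of these, 11 fell (Atp6v0b, Calcoco1, Get3, Ip6k2, Myl12b, P4ha1, Pfkl, Pfn1, Plcl1, Uba1 and Ubl5) and 2 rose (Mt1 and Stxbp6). Among them are the actin-binding profilin Pfn1, the myosin light chain Myl12b, the ubiquitin-activating enzyme Uba1 and a subunit of the vacuolar proton pump, Atp6v0b.

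Further low genes were Rgs4, a regulator of G protein signalling, with 4.28, 4.30 and 4.62 in Urethane short, against 5.37, 4.93 and 5.18 in ME short and 7.08, 7.72 and 5.30 in SN short. Its difference of -1.53 ± 0.41 (adjusted p = 0.0426) was carried by SN short 1 and 2, which stood far above the rest, and its call was lost without SN short 1 or 2 and without 5 other rats (Urethane short 1, 2 and 3 and ME short 1 and 3, adjusted p up to 0.157), and with the replicate block (0.0582). The protocadherin Pcdh18 fell by 1.24 ± 0.24 (adjusted p = 0.0109) and the homeobox factor Meox2 by 1.17 ± 0.28 (adjusted p = 0.0298). Fam110c fell by 1.02 ± 0.23 (adjusted p = 0.0197), the lymphocyte antigen Ly6e by 0.96 ± 0.21 (adjusted p = 0.0188) and the locus LOC100911719 by 0.89 ± 0.17 (adjusted p = 0.00831). The calls of these 5 were lost without Urethane short 1 or 2, those of Meox2 and Ly6e also without Urethane short 3, and that of Meox2 without ME short 1 or SN short 1 (adjusted p up to 0.123 for the 5). Pcdh18 and Fam110c were called against each group singly. Meox2 and Ly6e were not called against SN short (adjusted p = 0.174 and 0.179), nor LOC100911719 against ME short (0.0619). Ly6e also lost its call with averaged probe sets.

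Of 18 heat shock genes 3 fell, none rose and 15 did not pass, beside 2.7% called lower among all genes. Differences of 17 were below 0, with a median of -0.30 beside -0.02 for all genes. Bag3, a co-chaperone of HSP70, had 8.56, 8.44 and 8.69 in Urethane short, against 9.46, 9.45 and 9.16 in ME short and 8.71, 9.19 and 9.08 in SN short, a difference of -0.61 ± 0.14 (adjusted p = 0.0259). SN short 1 came close to Urethane short in it. Hspa4 fell by 0.43 ± 0.09 (adjusted p = 0.0119) and Dnaja1, a J-domain partner of HSP70, by 0.30 ± 0.08 (adjusted p = 0.0392). Set against the single groups, Bag3, Hspa4 and Dnaja1 were called against ME short (adjusted p 0.00911 to 0.0271) and not against SN short (0.089 to 0.189). Inducible Hspa1a was at -1.78 ± 0.59 (adjusted p = 0.095), with 6.37, 6.36 and 6.18 in Urethane short, against 7.50, 7.57 and 6.53 in ME short and 6.87, 9.51 and 10.54 in SN short. It was below every other array in Urethane short, with SN short 2 and 3 far above the rest. Of 25 genes of endoplasmic reticulum chaperones and the unfolded protein response, Hyou1 fell by 0.58 ± 0.12 (adjusted p = 0.0114) and Calr by 0.28 ± 0.06 (adjusted p = 0.0142). The other 23 did not pass, beside 2.7% called lower among all genes, and the list median was -0.03. Each of these 5 calls was lost without Urethane short 1 or 2, and that of Dnaja1 also without ME short 1 or 3 or SN short 2 or 3 (adjusted p up to 0.189).

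**Figure D3:**
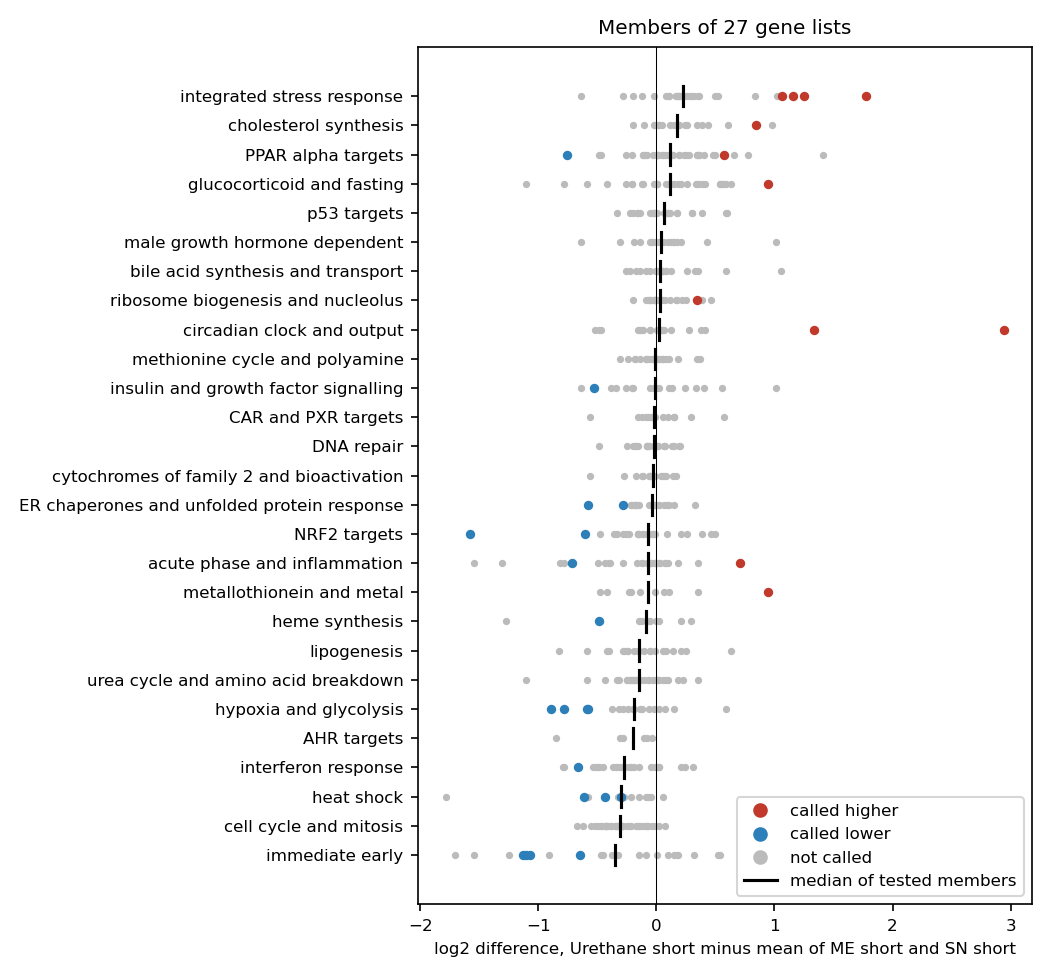
Log2 difference of each tested gene, Urethane short minus the mean of ME short and SN short (x axis), for 27 gene lists ordered by their median (y axis), with filled colours for called genes, grey for genes not called and a bar at the median. The integrated stress response list has the highest median, 0.22, and the immediate early list the lowest, -0.35.

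Of 25 p53 targets tested after the single dose, none was called, beside 3.72% among all genes, so a count of 0 in 25 is near the background. The median was 0.07 beside -0.02 for all genes. Cdkn1a, the cell cycle inhibitor, had 10.28, 10.19 and 9.80 in Urethane short, against 9.10, 9.69 and 9.78 in ME short and 10.01, 9.30 and 10.33 in SN short, a difference of 0.39 ± 0.34 (adjusted p = 0.55). Urethane short lay above ME short and overlapped with SN short. Mdm2, the ubiquitin ligase that limits p53, had 7.96, 7.97 and 8.03 in Urethane short, against 8.25, 8.44 and 8.30 in ME short and 8.11, 8.02 and 8.12 in SN short, a difference of -0.22 ± 0.09 (adjusted p = 0.178). Urethane short lay below ME short and overlapped with SN short in it. Ccng1, cyclin G1, was at -0.16 ± 0.13 and Gdf15, a secreted stress factor, at -0.02 ± 0.14. Without Urethane short 3, 1 of the 25 was called higher, and the same count was found with the quantile normalization. The p53 target Rps27l, a ribosomal protein relative outside the list that was picked after its values were seen, had 8.17, 8.25 and 8.03 in Urethane short, against 7.78, 7.46 and 7.39 in ME short and 7.55, 7.77 and 7.78 in SN short, a difference of 0.53 ± 0.13 (adjusted p = 0.0339).

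Repeated dosing gave other values for the same genes. In Urethane long minus the mean of ME long and SN long, 420 genes rose and 631 fell (10.3% of genes tested, with 4.11% higher and 6.18% lower), and 10 of the 25 p53 targets rose. Mdm2 was at 1.93 ± 0.09 (adjusted p = 1.25e-10), Ccng1 at 1.91 ± 0.13 (adjusted p = 2.48e-08) and Cdkn1a at 2.21 ± 0.34 (adjusted p = 0.00049). The test of the short difference minus the long difference called 412 genes (4.03%), 161 of them with the short difference higher (1.58%) and 251 with it lower (2.46%). Among the genes with the short difference lower were 8 of the p53 targets, with Mdm2 at -2.15 ± 0.13 (adjusted p = 9.18e-09), Ccng1 at -2.07 ± 0.19 (adjusted p = 3.15e-06) and Cdkn1a at -1.82 ± 0.48 (adjusted p = 0.0398). NRF2 targets showed the same order: 16 of 31 rose in Urethane long, whereas in Urethane short none rose and Osgin1 (-1.58 ± 0.37, adjusted p = 0.0275) and the glutathione transferase Gstm2 (-0.60 ± 0.13, adjusted p = 0.0186) fell, and 14 were called in the difference of differences. The serine genes ran the other way, with Phgdh at 2.18 ± 0.59 (adjusted p = 0.0418), Psat1 at 1.85 ± 0.43 (adjusted p = 0.0229) and Mthfd2 at 1.34 ± 0.34 (adjusted p = 0.0342) in the same test, and Asns not passing (adjusted p = 0.0597). With the replicate block Phgdh lost this call (adjusted p = 0.0552). Phgdh averaged 8.91 in Urethane short and 8.72 in Urethane long, against 6.63 and 8.77 in ME and 7.63 and 9.47 in SN. Psat1 averaged 9.36 and 9.02 in Urethane, 7.85 and 9.54 in ME and 8.56 and 9.88 in SN. Mthfd2 averaged 7.42 and 6.88, 6.29 and 7.03, and 6.42 and 7.28 in that order. Their long differences were -0.40, -0.69 and -0.28 and did not pass. They were named for their short difference, which is part of this test. Of the 380 genes called in Urethane short, 63 were called in Urethane long in the same direction and 14 in the opposite one. Mt1, at 0.78 ± 0.12 (adjusted p = 0.000605), and Ubl5, at -0.86 ± 0.09 (adjusted p = 9.85e-06), were among those called in the same direction. Osgin1 overlapped between the short groups and lost its call without Urethane short 1 or 2 or SN short 2 (adjusted p up to 0.155), and Gstm2 lost its call without Urethane short 1, 2 or 3 (up to 0.0762).

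**Figure D4:**
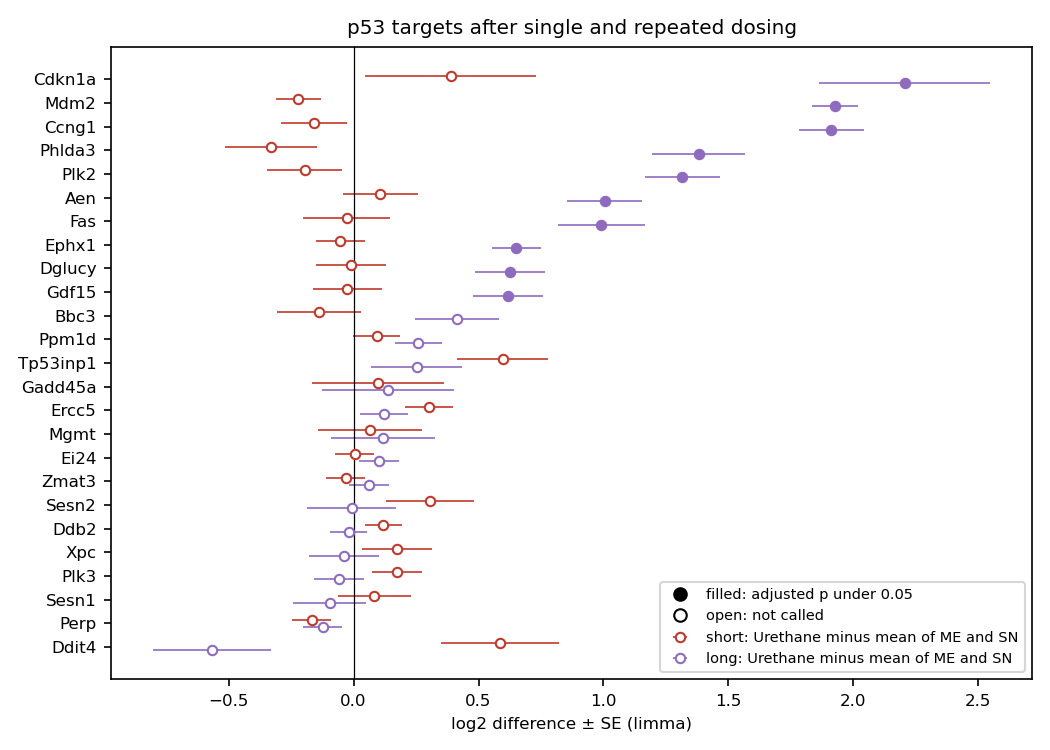
Log2 difference ± SE from limma of Urethane minus the mean of ME and SN (x axis) for the 25 tested p53 targets (y axis), in red for the short and in purple for the long groups, with filled points at an adjusted p under 0.05. All 25 short points are open, and 10 long points are filled, up to 2.21 for Cdkn1a.

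The enzymes that handle urethane did not pass. Cyp2e1, which oxidises it, had 13.38, 13.24 and 13.21 in Urethane short, against 13.30, 13.37 and 13.43 in ME short and 13.44, 13.30 and 13.23 in SN short. The groups overlapped throughout, and the difference was -0.06 ± 0.07 (adjusted p = 0.62). Ephx1, the microsomal epoxide hydrolase, was at -0.05 ± 0.10 (adjusted p = 0.799). Of 20 genes of cytochrome family 2 and bioactivation, 24 of DNA repair, 18 CAR and PXR targets and 6 AHR targets, none was called, with list medians of -0.03, -0.02, -0.02 and -0.20. With 3.72% called among all genes, a lack of calls in lists of these sizes is near the background. The repair methyltransferase Mgmt was at 0.07 ± 0.21 (adjusted p = 0.894).

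Clock genes differed between rats of 1 group. Dbp, a transcription factor driven directly by the clock, had 8.13, 8.09 and 6.00 in Urethane short, against 9.31, 9.98 and 6.49 in ME short and 7.46, 7.17 and 6.95 in SN short. Bmal1, which peaks in the opposite phase, had 6.79, 6.82 and 7.74 in Urethane short, against 6.46, 5.96 and 8.06 in ME short and 7.70, 7.46 and 7.73 in SN short. Urethane short 3 and ME short 3 thus stood apart from the other rats of their groups in both genes. Neither gene was called, with Dbp at -0.48 ± 0.73 and Bmal1 at -0.11 ± 0.41. Noct, a rhythmic phosphatase that also follows feeding, had 10.05, 9.99 and 6.24 in Urethane short, against 6.04, 8.36 and 4.63 in ME short and 5.58, 5.11 and 5.16 in SN short. Its difference of 2.95 ± 0.79 (adjusted p = 0.0455) was the largest of any called gene, yet Urethane short 3 lay among the other groups. Tsku, a secreted hepatokine, rose by 1.33 ± 0.36 (adjusted p = 0.0452), also with overlap. They were the called ones of 20 clock and output genes, with a median of 0.02. Noct was at 4.21 without Urethane short 3 and at 2.30 without Urethane short 1, and it lost its call without Urethane short 1 or 2, ME short 1 or 3 or any SN short rat (adjusted p up to 0.235). The call of Tsku was lost without any of 7 rats, all but ME short 2 and SN short 1 (up to 0.189), and with the replicate block (0.0513). Without both Urethane short 3 and ME short 3, 40 genes were higher and 145 lower, and with the Dbp minus Bmal1 difference of each array as a covariate there were 122 and 306.

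**Figure D5:**
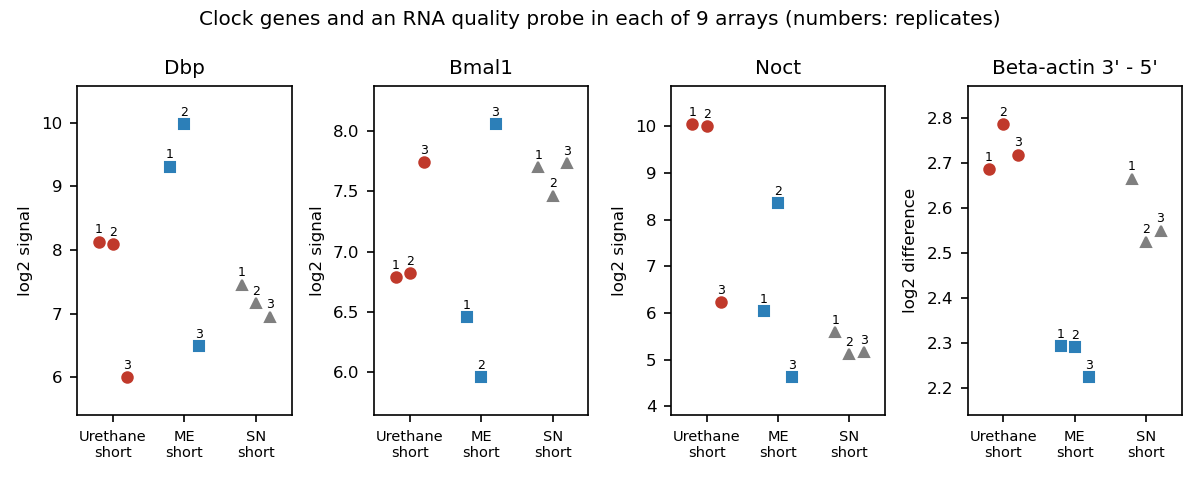
Log2 signal of Dbp, Bmal1 and Noct and the log2 difference of the 3′ and 5′ beta-actin probe sets (y axes) in the 3 Urethane short, 3 ME short and 3 SN short arrays (x axis), with the replicate number beside each point. Urethane short 3 and ME short 3 stand apart in Dbp and Bmal1, and the Urethane short arrays are highest in the beta-actin difference.

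Genes of glucocorticoid action and fasting gave 1 call among 34, Mt1, beside 3.72% called among all genes, with a median of 0.11. Tsc22d3, a glucocorticoid-induced leucine zipper, had 11.08, 10.97 and 11.02 in Urethane short, against 10.45, 10.86 and 10.27 in ME short and 10.53, 10.11 and 10.50 in SN short, a difference of 0.57 ± 0.16 that did not pass (adjusted p = 0.0546). Its arrays did not overlap. Per1 was at 0.41 ± 0.23 (adjusted p = 0.31) and Fkbp5 at -0.13 ± 0.34 (adjusted p = 0.874). Slc25a25, a mitochondrial ATP-magnesium carrier outside the lists that was named for its change between durations, had 11.45, 11.38 and 10.30 in Urethane short, against 9.86, 10.51 and 8.71 in ME short and 8.52, 8.73 and 9.45 in SN short. It rose by 1.75 ± 0.31 (adjusted p = 0.00617), with Urethane short 3 below ME short 2, and lost its call without Urethane short 1 or 2 (up to 0.0581). The insulin receptor substrate Irs1 fell by 0.53 ± 0.14 (adjusted p = 0.0471), the only call among 18 insulin and growth factor genes. Its call was lost without any of 7 rats, all but ME short 2 and SN short 1 (up to 0.187), and with the replicate block (0.0562).

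The other pathways gave few calls or none, beside 3.72% called among all genes, so counts this small are near the background. Of 36 cell cycle genes none was called, while 34 had differences below 0 and the median was -0.31. Of 31 acute phase and inflammation genes, Nfkbia rose and Lbp, which carries lipopolysaccharide, fell by 0.72 ± 0.18 (adjusted p = 0.0352). Of 26 interferon response genes, Cmpk2 fell by 0.66 ± 0.18 (adjusted p = 0.0426), of 12 heme synthesis and breakdown genes Blvra, a biliverdin reductase, fell by 0.48 ± 0.12 (adjusted p = 0.0309), and of 25 ribosome biogenesis genes Rrp9 rose by 0.34 ± 0.09 (adjusted p = 0.0344). No gene was called among 21 of lipogenesis, 22 of bile acid synthesis and transport, 21 that depend on male growth hormone pulses, 32 of the urea cycle and amino acid breakdown and 22 of methionine and polyamines. Lbp, Cmpk2, Blvra and Rrp9 lost their calls without Urethane short 1, 2 or 3, among others (adjusted p up to 0.189), and Cmpk2 also with the replicate block (0.0574).

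Of the marker lists of other cell types, only that of cholangiocytes held called genes, beside 3.72% called among all genes. A lack of calls in lists this short is near the background. All 5 red blood cell markers had differences below 0, with a median of -0.98 and no call. Their mean level was 8.26, 8.09 and 9.23 in Urethane short, against 8.90, 9.86 and 9.24 in ME short and 9.26, 9.67 and 10.21 in SN short. All 5 tested leukocyte markers were below 0 too, with a median of -0.78, a mean level of 5.32 to 5.57 in Urethane short, against 6.09 to 6.82 in ME short and 5.44 to 6.84 in SN short, and no call. Of the 13 macrophage, 11 endothelial and 17 stellate cell and fibroblast markers none was called, with medians of -0.20, -0.15 and -0.07. The stellate and fibroblast markers averaged 7.60 to 7.74 in Urethane short, against 7.58 to 7.94 in ME short and 7.63 to 8.08 in SN short, beside the fall of Pcdh18 and Meox2. Among 4 cholangiocyte markers, Epcam fell by 0.68 ± 0.12 (adjusted p = 0.0053) and the anion exchanger Slc4a2 by 0.51 ± 0.09 (adjusted p = 0.00465), beside 2.7% called lower among all genes. The other 2 did not pass, and 1 of the 4 was above 0, at 0.13. The list median was -0.50. The list averaged 6.35 to 6.57 in Urethane short, against 6.69 to 6.79 in ME short and 6.88 to 7.11 in SN short. DCP short averaged 7.17 in Epcam and 7.58 in Slc4a2, against 7.06 and 7.68 in Urethane short. Urethane short minus DCP short did not pass in either gene (adjusted p = 0.598 and 0.482). Epcam lost its call without Urethane short 1 (adjusted p = 0.0514) and with the Gapdh and beta-actin covariates (0.0682 and 0.214), and Slc4a2 kept its call without each rat in turn and lost it with the beta-actin covariate (0.0952). The part of cell makeup in the other results was not tested.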

How the data were processed

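Liver RNA was hybridised to Affymetrix rat arrays, 65 in all. The deposited table holds 31099 probe sets in log2 units that the authors obtained with RMA, per the labels and the design text, which give no version of RMA and say that 1 failed array was left out. The lowest and highest values of the test set (2.28 to 2.40 and 14.19 to 14.72) do not overlap with those of the 2 other sets of the series, so the sets seem to have been through RMA separately, and only the 24 test set arrays were used. Precision is limited by the number of arrays.

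The platform annotation pairs 20826 probe sets with a single symbol, 436 with several and 9837 with none (controls included). The 14217 genes were each represented by their brightest single-symbol probe set, by mean over all 65 arrays. The 10213 genes above the test set's median (log2 5.65) in at least 2 arrays were tested with limma 3.58.1 in R 4.3.3 (1 mean for each of 8 groups, 16 residual degrees of freedom, plain eBayes with a prior of 2.95), with two-sided p-values and Benjamini-Hochberg adjustment within each comparison. On simulated data with 200 of 10213 genes changed, 65% of changes of 0.5 and 96% of changes of 1 were recovered, with 8 false calls. These rates are those of the simulated data alone.

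The members and the 36 gene lists (27 of pathways, 9 of cell markers, 767 of 856 names matched) were chosen with earlier results of these data known. Genes were named by a rule: the 12 highest and 12 lowest called genes without overlap between Urethane short and the 6 other arrays, up to 4 called genes per list, a short fixed set such as Cdkn1a and Cyp2e1, and the 4 highest and 4 lowest genes in the short minus long test. Other members were named as examples after their values were seen. Alternatives were other filters, averaged probe sets, quantile normalization, median centring, eBayes with trend and robust, fewer groups in the fit, other references, a replicate block and leaving out each rat. Added after seeing the data were the RNA quality and clock covariates, the fit without Urethane short 3 and ME short 3, and the average of Urethane short 1 and 2. Same-numbered rats of Urethane short and ME short deviated together from their group means (correlations of 0.14 to 0.36, all 3 over 0.1, against -0.32 to 0.15 for unlike numbers). Same-numbered rats of SN short did not correlate so with Urethane short (-0.12 to 0.023) or ME short (-0.34 to -0.12). Over all 3 groups, 3 of 9 same-numbered and 6 of 18 unlike-numbered correlations were over 0.1, with means of -0.019 and 0.008. With 3 rats per group, whether the replicate numbers pair any groups cannot be told. The blocked value is given where it changes a call. Promoter windows come from RefSeq (GRCr8). Figures were drawn with matplotlib 3.10.9.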

Additional observations from a re-analysis of the deposited data

Results flagged for a closer look

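The change of the urethane difference between single and repeated dosing was called, by limma's test of the difference itself, in 161 genes with the short difference higher and 251 with it lower. The values below are the short difference minus the long difference on the log2 scale, each with an adjusted p under 0.05 (with the replicate block Phgdh was at 0.0552 and Pcdh18 at 0.0525), and their causes were not tested. The long groups differ from the short ones in the number of doses and in time at once, which cannot be told apart. Most genes below were named for their short difference, which is part of this test, so their values lean towards its sign. The exceptions are Cdkn1a, Mdm2, Ccng1, Ephx1 and Tsc22d3 of the fixed set. The 4 highest and 4 lowest genes were picked by this test itself.

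Among genes with a higher short difference, the values were 2.18 for Phgdh, 1.85 for Psat1 and 1.34 for Mthfd2 of serine and one-carbon metabolism. In these genes ME long and SN long averaged higher than ME short and SN short. The values were 1.15 for Msmo1, 1.13 for Stxbp6, 1.17 for Nfkbia, 0.95 for Rfx3 and 1.09 for Tsc22d3. The highest were 3.16 for the zinc finger gene Zfp354a, 2.72 for Slc25a25, 2.41 for the lipid transporter Mfsd2a and 2.36 for cyclin A2 (Ccna2). Their short differences were 1.19 for Zfp354a, 1.75 for Slc25a25, 1.25 for Mfsd2a and -0.48 for Ccna2, of which that of Slc25a25 passed. Their long differences were -1.97, -0.97, -1.17 and -2.84 in the same order, and that of Slc25a25 did not pass (adjusted p = 0.0513).

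Among genes with a lower short difference, the immediate early genes had -2.14 for Maff, -1.25 for Junb and -1.30 for Jun, and the ERK phosphatase Dusp5 had -1.25. The p53 targets had -1.82 for Cdkn1a, -2.15 for Mdm2, -2.07 for Ccng1 and -0.70 for Ephx1, which is on the p53 list besides its role in metabolism. Genes of hypoxia and glycolysis had -0.69 for Pfkl, -0.73 for Aldoa and -0.88 for Ankrd37. Pcdh18 had -1.30, Bag3 -0.84 and Irs1 -1.03. The lowest were -3.39 for the glutathione peroxidase Gpx2, -2.96 for the glucuronosyltransferase Ugt2b7, -2.78 for the transcription factor Mybl1 and -2.53 for the export pump Abcc3. In Urethane long the last 4 genes were at 3.85, 2.90, 2.47 and 2.37 against the mean of ME long and SN long, whereas their short differences were 0.46, -0.05, -0.31 and -0.16 and did not pass.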

How the results depend on the processing

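With each rat left out in turn, the counts of higher and lower genes ranged over 3 to 153 and 37 to 381 in the comparison with both groups, 21 to 160 and 19 to 398 against ME short, 7 to 71 and 62 to 268 against SN short, and 63 to 196 and 124 to 281 for short minus long. With the 9 arrays alone they were 9 and 36, 4 and 5, and 2 and 24 in the first 3 comparisons. Quantile normalization gave 168 and 178, 250 higher against ME short and 130 lower against SN short. The covariates chosen after seeing the data gave 10 and 56 (Gapdh) and 3 and 16 (beta-actin), the fit without Urethane short 3 and ME short 3 gave 40 and 145, and averaging Urethane short 1 and 2 gave 4 and 37. With ME short alone as reference 162 were higher, with SN short alone 54 were higher, and with DCP short added 367 were higher and 422 lower. The replicate block gave 82 and 221, ended the calls of 8 named genes and, against ME short, of 5 (Nfkbia gained one there, adjusted p = 0.0477), against SN short of 4 and for short minus long of 2. It changed no other call of a named gene. Of 46 called named genes, 7 kept their call without each rat, and 40 lost it with the beta-actin covariate. No called named gene reversed. The reversals lay in genes that did not pass. With each rat left out, the lowest and highest differences were -0.083 and 0.020 for Gdf15, -0.025 and 0.18 for Mgmt, -1.01 and 0.22 for Dbp, -0.42 and 0.20 for Bmal1, -0.38 and 0.37 for Fkbp5, -0.14 and 0.024 for Ugt2b7, and -0.38 and 0.051 for Abcc3. With the beta-actin covariate Cdkn1a was at -0.11, Mgmt at -0.14, Cyp2e1 at 0.026 and Ugt2b7 at 0.41. With the Gapdh covariate Cyp2e1 was at 0.0062, Gpx2 at -0.25 and Ugt2b7 at 0.47. With Urethane short 1 and 2 averaged Gdf15 was at 0.0043 and Bmal1 at 0.044, and without Urethane short 3 and ME short 3 Fkbp5 was at 0.26 and Ugt2b7 at 0.0495. With ME short alone as reference Ephx1 was at 0.0091, Bmal1 at 0.29 and Ugt2b7 at 0.13. With SN short alone Gdf15 was at 9e-04, Dbp at 0.22 and Fkbp5 at 0.010, and with DCP short added Mgmt was at -0.012 and Dbp at 0.34. The cause was not tested.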

Other observations

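Onecut1, a transcription factor of hepatocytes picked here after its values were seen, had the highest value among the hepatocyte markers and did not pass. It had 11.62, 11.64 and 11.03 in Urethane short, against 9.34, 8.97 and 11.08 in ME short and 8.03, 9.99 and 8.82 in SN short, a difference of 2.06 ± 0.81 (adjusted p = 0.159). ME short 3 lay at the level of Urethane short 3. Insig1, which holds back cholesterol synthesis when sterols are plentiful and was picked in the same way, had 12.32, 12.39 and 11.83 in Urethane short, against 11.31, 11.86 and 11.20 in ME short and 11.41, 10.02 and 11.41 in SN short, a difference of 0.98 ± 0.31 (adjusted p = 0.078).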
